A study of Mus musculus with 6 samples.

Results

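The 34 genes examined here carry glucose into the cell, break it down to lactate, or belong to the response to low oxygen. They were chosen by gene symbol, as a list, and all 34 were found among the 41214 gene identifiers of the count files. Messenger RNA of trypsinized skin, labelled epidermis, was sequenced from C57BL/6 mice on postnatal day 4. Of the 6 libraries, 3 were wild type (wt) and 3 were ARPC4 knockout (ko). ARPC4 is a subunit of the Arp2/3 complex, which builds branched actin networks, and the titles mark the ko libraries as hom. The labels name neither the deleted part of the gene nor a Cre driver, and they do not say whether the wt animals carried any allele or whether a library came from 1 animal or several. Replicates 1 and 2 of each group (titled I and II) carry a date in their titles, and replicate 3 (titled Tryp) does not. Arpc4 itself stood at 72.5, 82.5 and 73.1 CPM (counts per 1000000 reads of the library size, which is the reads assigned to genes scaled by TMM) in wt replicates 1, 2 and 3, and at 67.5, 65.6 and 64.5 CPM in the ko ones. The ko mean was thus 86.6% of the wt mean (edgeR, adjusted p = 0.469), so the count over the whole gene shows no loss of the transcript, and since the deleted part is not given it checks the genotype in neither direction. Here ko means a library labelled ko, and every direction below rests on those labels.

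In glycolysis, glucose enters through transporters of the GLUT family, is trapped by hexokinase, and is split and oxidized to pyruvate in the cytosol. Lactate dehydrogenase can turn pyruvate into lactate, which leaves through monocarboxylate transporters, while pyruvate dehydrogenase kinases hold pyruvate back from the mitochondria. The transcription factor subunit HIF-1 alpha, encoded by Hif1a, is degraded in oxygen after hydroxylation by the EGLN enzymes, so its activity is set largely at the protein level. When stable, it pairs with ARNT, binds DNA at the core letters ACGTG or GCGTG and raises many glycolytic genes. Epidermis has no vessels of its own, is fed from the dermis and makes much lactate.

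The 250 bases before the start site are shown for the 4 genes whose levels the account below turns on most, Hk2, Slc16a3, Ldhb and Bnip3. They are from RefSeq on GRCm38.p6 (mm10), 5′ to 3′ along the gene, with every ACGTG on either strand in capitals.
Hk2, chr6:82774455-82774704, minus strand: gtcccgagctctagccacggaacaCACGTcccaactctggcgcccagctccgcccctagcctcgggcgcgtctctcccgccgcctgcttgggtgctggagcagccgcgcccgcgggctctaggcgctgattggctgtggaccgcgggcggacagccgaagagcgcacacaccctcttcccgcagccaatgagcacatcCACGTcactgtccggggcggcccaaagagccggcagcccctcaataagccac
Slc16a3, chr11:120948817-120949066, plus strand: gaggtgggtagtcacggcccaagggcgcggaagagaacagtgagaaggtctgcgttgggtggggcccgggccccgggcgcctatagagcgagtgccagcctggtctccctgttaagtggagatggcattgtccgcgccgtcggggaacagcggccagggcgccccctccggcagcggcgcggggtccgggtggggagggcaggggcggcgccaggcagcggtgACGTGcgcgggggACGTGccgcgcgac
Ldhb, chr6:142507958-142508207, minus strand: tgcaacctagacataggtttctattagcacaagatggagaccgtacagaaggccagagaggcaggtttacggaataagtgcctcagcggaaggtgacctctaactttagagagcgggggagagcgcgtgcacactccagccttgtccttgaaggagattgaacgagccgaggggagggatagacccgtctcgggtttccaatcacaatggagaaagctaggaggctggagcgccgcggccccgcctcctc
Bnip3, chr7:138909507-138909756, minus strand: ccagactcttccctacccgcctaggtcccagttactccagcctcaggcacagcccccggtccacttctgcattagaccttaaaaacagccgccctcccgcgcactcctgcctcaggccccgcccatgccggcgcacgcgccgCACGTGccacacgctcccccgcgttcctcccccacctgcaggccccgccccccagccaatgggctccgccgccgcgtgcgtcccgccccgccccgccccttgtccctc
Of the core in capitals, the Hk2 and Slc16a3 windows held 2 matches each. The pair counted in the Bnip3 window is the palindrome CACGTG, read on both strands, and the Ldhb window held none. RefSeq windows were found for 32 of the 34 genes, and ACGTG occurred in 23 of their 47 windows (48.9%), against 16.6% of all 32851 windows and 20.9% of the 13468 windows of genes tested. The other core, GCGTG, occurred in 55.3% of the members' windows, against 28.2% of all windows and 43.3% of those of genes tested. CACGTG occurred in 14.9, 6.02 and 8.09%. The members' windows had a mean G+C content of 60.8%, against 53.2% in all windows and 59.6% for genes tested, and neighbouring windows of 1 gene share sequence. Both strands were searched. The other core, which is not in capitals, had 0 matches in the Hk2 and Slc16a3 windows, 1 in the Ldhb window and 3 in the Bnip3 window. These 4 genes were picked for their levels. GCGTG also occurred in windows of members that were higher in ko, as in Pfkp (3 matches) and Egln1 (1 match). Among members with an unadjusted p under 0.05 in the edgeR test below, GCGTG was in 3 of 10 windows with ko higher. With ko lower it was in 2 of 2 windows. A match is a description of these letters, and binding was not measured.

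Across the 34 genes the direction was mostly upward in ko, but none of them passed the test over all genes. The log2 fold change of ko over wt was above 0 in 26 genes and below 0 in 8, with a median of 0.34. Over all 13704 genes tested 53.1% were above 0, and the median was 0.02. With edgeR's quasi-likelihood test and Benjamini-Hochberg adjustment over all genes, 0 of the 34 were called higher, where 0.219% of all genes were, and 0 were called lower, where 0% were. With p under 0.05 before adjustment, 10 of the 34 were higher (7.98% of all genes) and 2 were lower (5.25% of all genes), and DESeq2 called 5 higher (2.79% of all genes) and 2 lower (1.42% of all genes). The 10 were Hif1a, Egln1, Egln3, Hk2, Pfkp, Pfkfb3, Pkm, Slc16a3, Slc2a3 and Ndrg1, and the 2 were Ldhb and Bnip3. The 5 higher calls of DESeq2 were Hk2, Pfkp, Slc16a3, Hif1a and Egln1, and its 2 lower calls were again Ldhb and Bnip3. The ko libraries all exceeded the wt libraries in 13 of the 34 genes, against 11.3% of all genes, and were all below them in 3, against 8.03% of all genes. All 34 passed the filter on low counts.

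**Figure D1:**
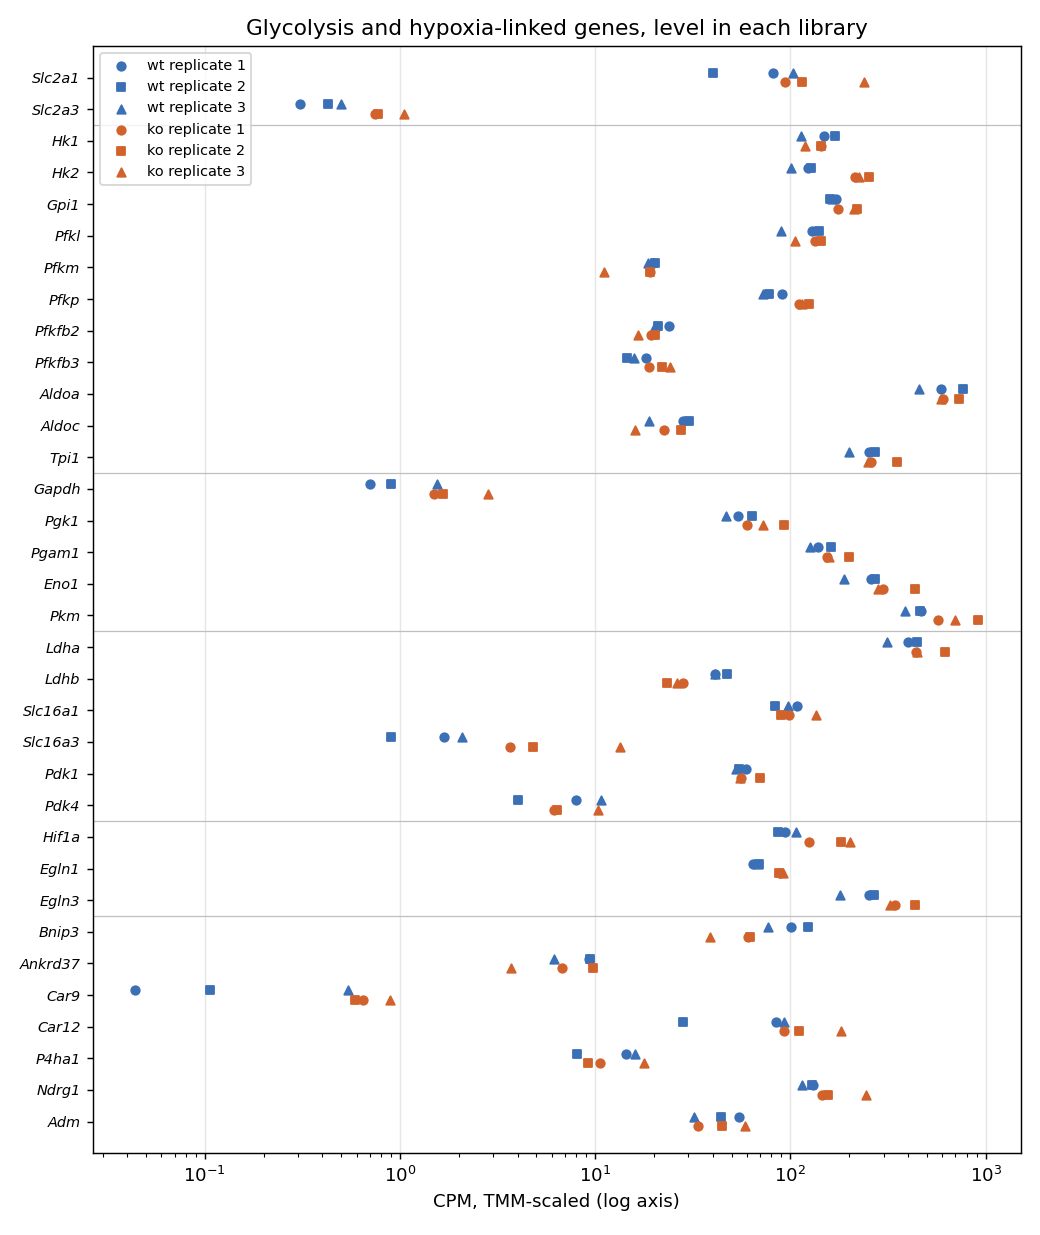
Level of each gene in each library, in CPM after TMM scaling, on a log axis, with wt in blue and ko in orange and the marker shape showing the replicate. The 3 ko libraries of Hk2 lie between 214 and 253 CPM and its wt libraries between 100.3 and 128 CPM.

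The comparison was repeated with the presence of a date in the title as a covariate, since a date may mark a separate round of work. The same split separates the libraries titled Tryp from those titled I and II, so the date and the title word cannot be told apart. With that term edgeR called 6 members higher, Hk2, Pfkp, Slc16a3, Hif1a, Egln1 and Egln3, and 2 lower, Ldhb and Bnip3, where 3.2% and 1.98% of all genes were called. Among the 4 dated libraries alone, Hk2 was called higher and Bnip3 lower, where 1.16% and 0.485% of all genes were called. The undated libraries, 1 in each group, allow no test. Before adjustment, p was under 0.05 in 17 members with ko higher and 2 with ko lower under the covariate (12% and 10.3% of all genes), and in 9 and 2 among the dated libraries (8.65% and 7.55%). Hk2 was also called higher by edgeR with total counts as library size (0.146% of all genes higher, 0% lower) and without a filter on low counts (0.246% higher, 0.00896% lower). An adjusted p under 0.1 in the main test took in 1 member on each side, Hk2 and Ldhb (1.19% and 0.372% of all genes). Replicate 3 was the lowest of its group in both wt and ko for 12 of the 34 genes and the highest in both for 9. The shares over all genes tested were 28.8 and 28.4%. Among the 12 were Aldoa, Tpi1, Eno1, Pfkl, Hk1, Egln3 and Bnip3, and among the 9 were Slc2a1, Slc16a3, Hif1a and Car12.

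Sums of cell type markers also differed between these libraries. The 10 basal keratinocyte markers, of the dividing layer next to the basement membrane, summed, in replicates 1 to 3, to 7766, 2107 and 10450 CPM in the wt libraries and 3360, 4658 and 12028 CPM in the ko libraries. They were lowest in wt replicate 2 and highest in replicate 3 of both groups. The 9 matched suprabasal markers summed to between 82825 and 139114 CPM in wt and between 84666 and 159029 CPM in ko, lowest in replicate 3 of both groups. The tissue label is thus matched by abundant keratinocyte markers in all 6 libraries. All 10 fibroblast markers had a log2 fold change above 0, and their sum was 202 to 459.8 CPM in wt and 968 to 1986 CPM in ko. All 8 endothelial markers that could be tested were above 0, with sums of 3.88 to 4.67 and 12 to 24.7 CPM over 10 markers. All 9 melanocyte markers tested were above 0, with sums over 10 markers of 75.3 to 96.4 CPM in wt and 105.7 to 151 CPM in ko. All 10 proliferation markers and all 10 macrophage and Langerhans markers were above 0 too, with sums that overlapped, of 129 to 517 and 227 to 749 CPM and of 134 to 266 and 186 to 323 CPM. The 10 adipocyte and sebaceous markers summed to 1152 to 1334 CPM in wt and 422 to 637 CPM in ko, with 5 of 7 tested below 0. The 10 neutrophil markers summed to under 1 CPM in wt (0.745 to 0.952) and to 6.16 to 15.7 CPM in ko, mostly from Cxcr2 in ko, with Ly6g and Mmp8 at 0 in all 6 libraries. The part of these cell types in the results below was not tested. In bulk tissue, fewer cells of a type and less RNA per cell cannot be told apart.

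Counts of several glycolytic genes may be incomplete, because a read that aligned to several places counted for no gene. The entry for such alignments made up 32.4 to 40.9% of all counts listed. Whether a read could enter it more than once is not stated, so the share of reads may be smaller. Glycolytic enzymes have many processed pseudogenes, which are copies of a messenger RNA pasted back into the genome. For each gene, the share of distinct windows of read length (51 bases) in its coding transcripts that also occur in transcripts of another gene was computed from GENCODE M21. It was 67.9% for Pgk1, 58.4% for Bnip3, 58.1% for Gapdh, 49.3% for Eno1, 41.4% for Pgam1, 24.9% for Pfkfb2, 23.9% for Gpi1, 23.3% for Pkm and 20.4% for Ldhb. It was 0% for Hk2, Slc16a1, Slc16a3, Egln1, Egln3, Car12, Pdk1, P4ha1, Aldoc, Adm and Slc2a3. Gapdh (ENSMUSG00000057666, chromosome 6, 125161715 to 125166467, minus strand), the enzyme often used as a housekeeping control, had only 16, 17 and 34 reads in wt and 30, 28 and 54 in ko. Its windows recurred in transcripts of 220 other genes, the most of the 34. Per kilobase it reached 0.254 RPKM (CPM per kilobase of annotated exon) in wt, against 87.5 RPKM for Tpi1 and 71.8 RPKM for Pgam1, enzymes of nearby steps. How many Gapdh reads were set aside was not tested. Unannotated copies are not in this share, and windows shared with overlapping or readthrough transcripts are, as for Pfkm, Pfkp and Gpi1.

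**Figure D2:**
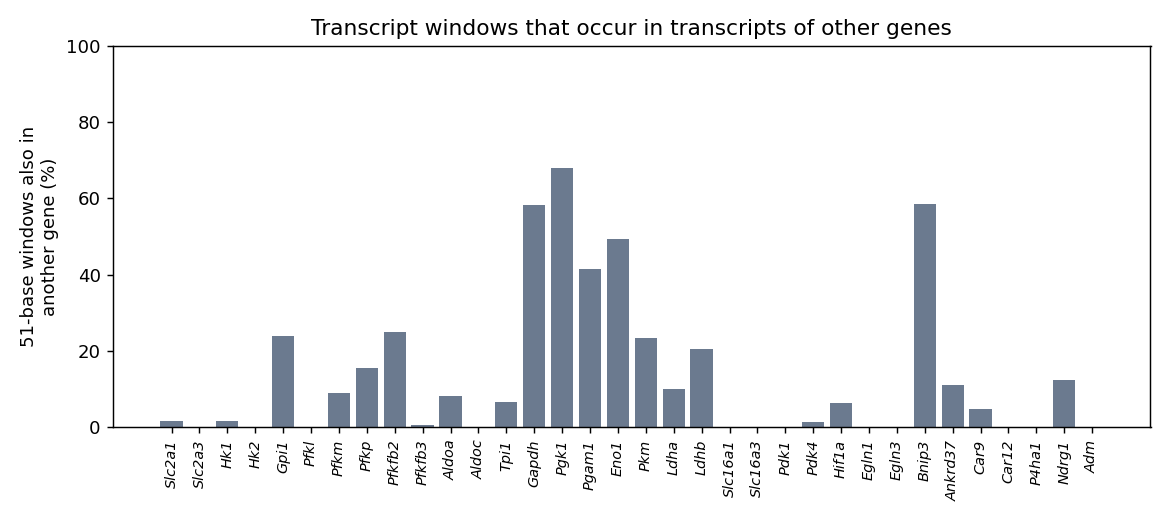
Percentage of distinct 51-base windows of each gene's coding transcripts that also occur, on either strand, in a transcript of another gene, as bars from 0 to 100%. The tallest bars are those of Pgk1 (67.9%), Bnip3 (58.4%) and Gapdh (58.1%), and 11 genes have none.

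Of the glucose transporter pair, Slc2a1 gave nearly all reads. Slc2a1, which encodes the GLUT1 transporter of keratinocytes (ENSMUSG00000028645, chromosome 4, 119108711 to 119137983, plus strand), was measured at 81.0, 40.2 and 103 CPM in the wt libraries and 93.6, 114 and 239.6 CPM in the ko libraries, given here and below in the order of replicates 1 to 3. Ko replicate 3 stood above all the others and wt replicate 2 below, and ko replicate 1 lay within the wt range. Its fitted difference on the log2 scale, 1.0 (SE 0.45, 95% interval -0.08 to 2.08), missed the threshold (edgeR, adjusted p = 0.418). It was 0.45 without ko replicate 3 and 0.70 without wt replicate 2. The order of the libraries within each group was that of the basal, fibroblast and proliferation marker sums, as it also was for Slc16a3, Hif1a and Car12. Of these sums the fibroblast one also lay higher in every ko library, and the part of those cells in these values was not tested. Slc2a3, the high-affinity transporter GLUT3, was near the floor with 7 to 11 reads in wt and 13 to 20 in ko. Per kilobase it made up 0.309 ± 0.176% of the pair in wt and 0.306 ± 0.0875% in ko (SD, n = 3).

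The hexokinases trap glucose as glucose 6-phosphate, and their balance differed between the groups. Hk2, the inducible hexokinase (ENSMUSG00000000628, chromosome 6, 82725025 to 82774454, minus strand), was measured at 124, 128 and 100.3 CPM in the wt libraries and 214, 253 and 224 CPM in the ko libraries. All 3 ko libraries lay well above all 3 wt libraries. Its means were 117 ± 14.9 and 230.4 ± 20.5 CPM (SD, n = 3), a ratio of 1.96. Its log2 fold change of 0.97 (SE 0.14, 95% interval 0.63 to 1.32) had the smallest p of the 34 genes and an adjusted p of 0.0658 over all genes (edgeR). It was 0.86 among the dated libraries (adjusted p = 0.0465) and 0.98 with the title covariate (adjusted p = 0.00911), and DESeq2 gave an adjusted p of 2.16e-05. With limma-voom the adjusted p of Hk2 was 0.0878. Without any 1 library it ran from 0.0814 to 0.378 (edgeR). Hk1, the broadly expressed hexokinase, stood at 148, 169.9 and 114 CPM in the wt libraries and 144, 143 and 118 CPM in the ko libraries. The Hk1 groups overlapped fully (log2 fold change -0.09, 95% interval -0.51 to 0.33). Of the reads per kilobase of the pair, Hk1 gave 45.6, 48.1 and 44.3% in wt and 32.1, 28.3 and 27.0% in ko. That is a difference of -16.9 percentage points with no overlap (exact permutation test, two-sided, p = 0.1, the smallest that 3 against 3 allows, adjusted p = 0.133 over the 8 shares tested).

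Phosphofructokinase commits sugar to glycolysis, and its 3 genes encode the liver (Pfkl), muscle (Pfkm) and platelet (Pfkp) forms. Pfkp was measured at 90.1, 77.8 and 72.5 CPM in the wt libraries and 111, 124 and 114 CPM in the ko libraries, without overlap. Its log2 fold change of 0.54 (SE 0.12) had an adjusted p of 0.136 with edgeR and 0.0219 with DESeq2. Pfkl stood at 119.5 ± 26.9 and 128 ± 19.8 CPM, and Pfkm at 19.5 ± 0.879 and 16.5 ± 4.63 CPM (SD, n = 3), both with overlapping groups. Per kilobase, Pfkl gave 54.9 to 64.0% of the reads in wt and 57.1 to 59.0% in ko. The Pfkp share was 21.1, 17.6 and 22.2% in wt and 24.4, 25.3 and 30.8% in ko, and the Pfkm share 18.5, 18.4 and 22.8% against 16.9, 15.7 and 12%. Neither pair of groups overlapped (exact permutation p = 0.1 each, adjusted p = 0.133). The union of annotated exons of Pfkp is long (13401 bases), so its share is understated where only some exons are used, and by reads alone Pfkp exceeded Pfkl in ko replicate 3 (2181 against 2013 reads). Without division by length the differences were 8.10 percentage points for Pfkp and -2.77 for Pfkm.

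The bifunctional PFKFB enzymes make fructose 2,6-bisphosphate, the main activator of phosphofructokinase. Pfkfb3 was measured at 18.2, 14.6 and 15.7 CPM in the wt libraries and 18.8, 22.1 and 24.2 CPM in the ko libraries, with no overlap but a narrow gap (log2 fold change 0.42, adjusted p = 0.31 by edgeR). Pfkfb2 stood at 23.8, 20.9 and 20.2 CPM in the wt libraries and 19.3, 20.2 and 16.6 CPM in the ko libraries (-0.21, adjusted p = 0.592). Pfkfb4, a relative outside the 34 genes, stood at 40.6 ± 8.02 and 71.5 ± 5.37 CPM (SD, n = 3; 0.82, adjusted p = 0.101).

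The isomerases and aldolases of upper glycolysis had log2 fold changes of -0.23 to 0.30. Gpi1, glucose phosphate isomerase, stood at 164 ± 5.61 and 202 ± 23.4 CPM (SD, n = 3), the ko libraries all above the wt libraries, with a log2 fold change of 0.30 (95% interval -0.01 to 0.60). Aldoa, the main aldolase, was the most abundant of the 34 genes per kilobase, at 207 RPKM in wt and 220.3 RPKM in ko. Its 592, 762 and 454 CPM in the wt libraries and 604, 731 and 588 CPM in the ko libraries overlapped (log2 fold change 0.09). Aldoc, the form best known from brain, made up 4.06, 3.42 and 3.58% of aldolase reads per kilobase in wt and 3.22, 3.23 and 2.36% in ko, without overlap (exact permutation p = 0.1). Tpi1, triosephosphate isomerase, stood at 241 ± 37.4 and 286 ± 55.7 CPM (0.25).

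All 5 enzymes of the pay-off phase had log2 fold changes above 0, from 0.26 to 0.92, and none passed over all genes. The 0.92 was that of Gapdh, which had only 16 to 34 reads in wt and 28 to 54 in ko, with overlapping groups. Pkm, pyruvate kinase, whose splice forms M1 and M2 are not told apart by gene counts (ENSMUSG00000032294, chromosome 9, 59656368 to 59679375, plus strand), was measured at 469, 462 and 386 CPM in the wt libraries and 570.4, 918 and 695 CPM in the ko libraries. Every ko library was above every wt library, with ko replicate 2 the highest. Its log2 fold change was 0.73 (SE 0.21, 95% interval 0.23 to 1.22, adjusted p = 0.198 by edgeR and 0.0573 by DESeq2). Eno1, enolase 1, stood at 258, 273 and 189 CPM in the wt libraries and 297, 434 and 280.1 CPM in the ko libraries (0.49, adjusted p = 0.425). Pgk1 (0.45) and Pgam1 (0.26), the kinase and the mutase between Gapdh and enolase, overlapped between groups. Ko replicate 2 was the highest library for Pgk1, Pgam1, Eno1, Pkm, Tpi1 and Ldha alike.

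**Figure D3:**
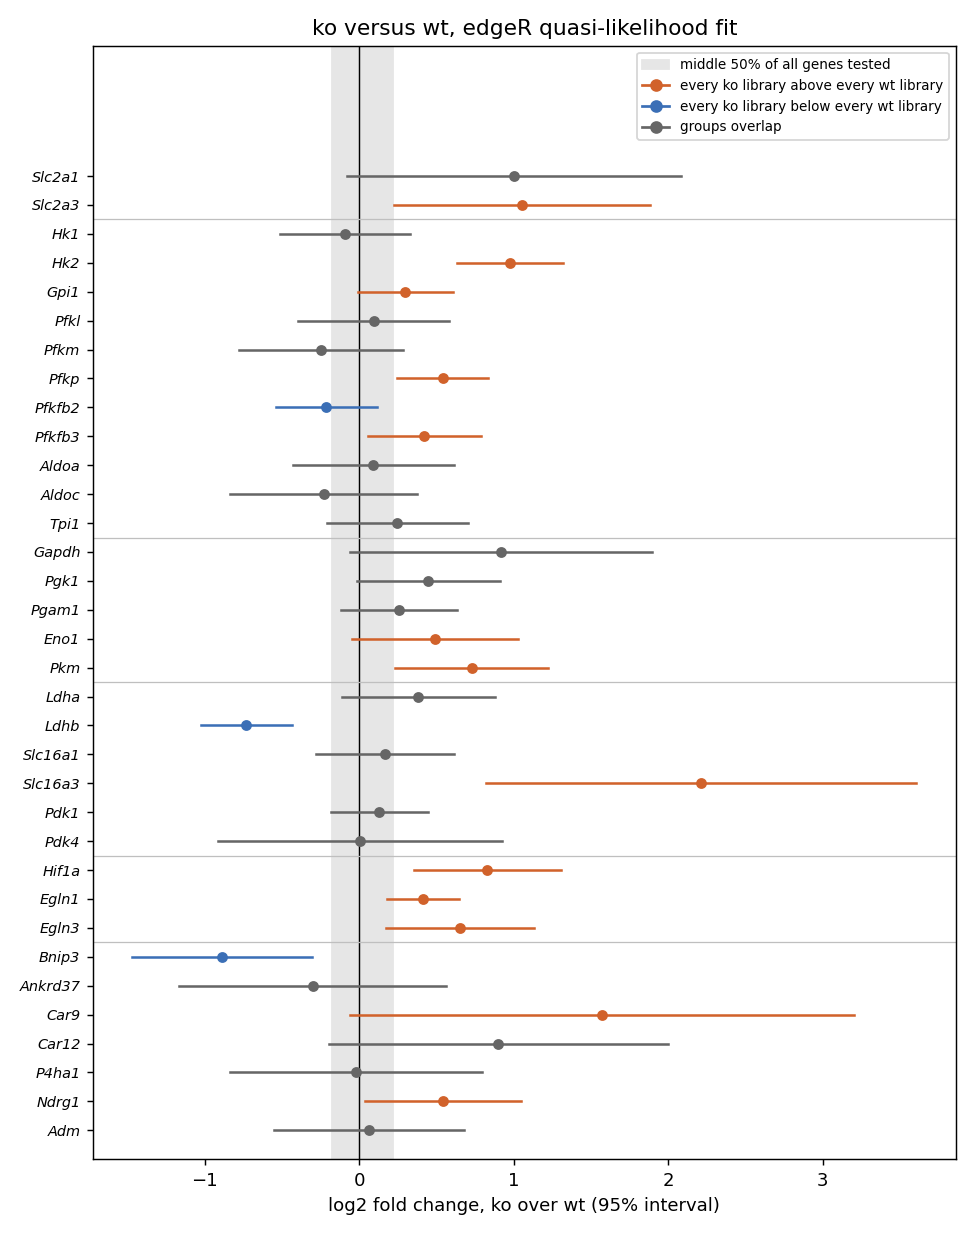
Log2 fold change of ko over wt with its 95% interval for the 34 genes, ordered by role, coloured by whether the groups overlap, over a grey band for the middle 50% of all genes tested. Hk2 (0.97), Slc16a3 (2.21), Ldhb (-0.73) and Bnip3 (-0.89) have intervals away from 0. So do Slc2a3, Pfkp, Pfkfb3, Pkm, Hif1a, Egln1, Egln3 and Ndrg1. None of the 34 passed over all genes.

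At the lactate step the balance of the dehydrogenase pair differed between the groups. Ldhb encodes the H subunit, known from oxidative tissues (ENSMUSG00000030246, chromosome 6, 142490249 to 142507957, minus strand). It was measured at 40.9, 47.2 and 41.0 CPM in the wt libraries and 28.3, 23.3 and 26.3 CPM in the ko libraries. All 3 ko libraries lay below all 3 wt libraries. The means were 43.1 ± 3.60 and 26.0 ± 2.51 CPM (SD, n = 3), with a log2 fold change of -0.73 (SE 0.12, 95% interval -1.03 to -0.43; adjusted p = 0.084 with edgeR, 0.0234 with the title covariate and 0.000773 with DESeq2). Ldha, the M subunit and the main form here, stood at 399, 445 and 312 CPM in the wt libraries and 441, 622 and 444 CPM in the ko libraries, with overlap (0.38, adjusted p = 0.513). The Ldhb share of the pair per kilobase was 17.8, 18.3 and 21.7% in wt and 11.9, 7.32 and 11.1% in ko, a difference of -9.15 percentage points (exact permutation p = 0.1, adjusted p = 0.133). Leaving out any 1 of the 6 libraries gave differences of -10.05 to -7.75 percentage points. The adipocyte and sebaceous marker sum was also lower in every ko library, and its part in the Ldhb values was not tested.

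Monocarboxylate transporters carry lactate across the membrane. Slc16a3, encoding the export-type MCT4 (ENSMUSG00000025161, chromosome 11, 120948480 to 120960868, plus strand), was measured at 1.67, 0.904 and 2.09 CPM in the wt libraries and 3.68, 4.79 and 13.4 CPM in the ko libraries. These rest on 17 to 46 reads in wt and 74 to 256 in ko. Every ko library was above every wt library, and ko replicate 3 stood apart from the other ko libraries. Its log2 fold change of 2.21 (SE 0.58, with a 95% interval of 0.82 to 3.61) was the largest of the 34 genes in the main test, while that of Car9 was larger among the dated libraries (2.97 against 1.66), by limma-voom (2.09 against 2.04) and without wt replicate 3 (3.18 against 2.47). Its adjusted p was 0.178 with edgeR, 0.0218 with the title covariate and 0.00526 with DESeq2, and without ko replicate 3 the log2 fold change was 1.38. The adjusted p of Slc16a3 was 0.0823 among the dated libraries (edgeR) and 0.25 with limma-voom. Without any 1 library it ran from 0.17 to 0.505 (edgeR). Slc16a1, encoding MCT1, was the main transporter, at 96.2 ± 12.1 CPM in the wt libraries and 108 ± 24.4 CPM in the ko libraries (SD, n = 3; 0.17). The share of Slc16a3 in the pair per kilobase was 1.28, 0.893 and 1.75% in wt and 3.01, 4.25 and 7.61% in ko, without overlap (exact permutation p = 0.1).

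The kinases that switch off pyruvate dehydrogenase were close to equal among the 34 genes. Pdk1, a HIF target, stood at 55.3 ± 3.32 and 60.5 ± 8.40 CPM (SD, n = 3; log2 fold change 0.13, 95% interval -0.18 to 0.44). Pdk4, the form linked to fasting and fat use, stood at 8.01, 4.04 and 10.7 CPM in the wt libraries and 6.16, 6.39 and 10.3 CPM in the ko libraries (0.00, 95% interval -0.92 to 0.92). The wide interval of Pdk4 comes with a spread among wt libraries as large as any difference between groups. Outside the 34, Pdk2 stood at 4.33 ± 0.355 and 1.95 ± 0.512 CPM, the ko libraries all below the wt libraries (-1.14, adjusted p = 0.137 by edgeR and 0.00863 by DESeq2).

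**Figure D4:**
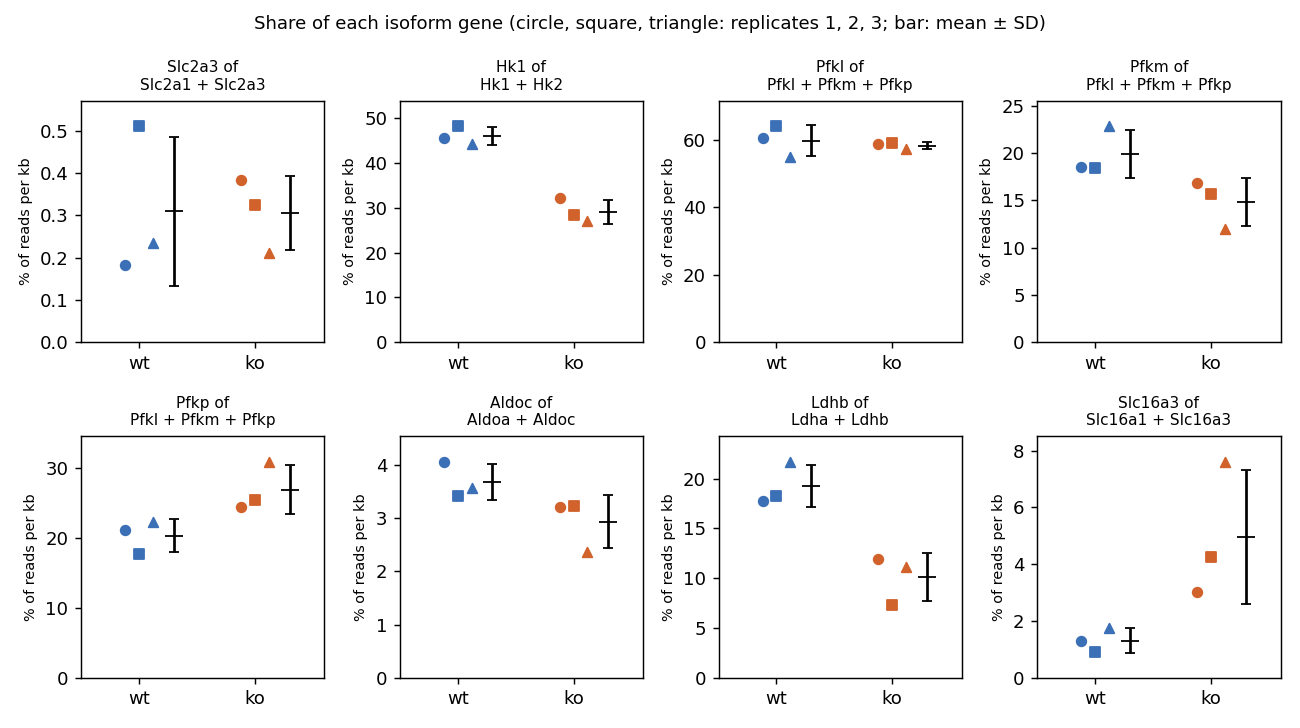
Share of 1 gene among the genes of its step, as a percentage of reads per kilobase, for each library by group, with the mean and SD beside the points and each axis starting at 0. The Hk1 share is 44.3 to 48.1% in wt and 27.0 to 32.1% in ko, and the Ldhb share 17.8 to 21.7% and 7.32 to 11.9%.

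Hif1a and the genes of both oxygen-sensing EGLN enzymes on the list stood higher in ko. Hif1a (ENSMUSG00000021109, chromosome 12, 73901375 to 73947530, plus strand) was measured at 94.1, 86.2 and 107 CPM in the wt libraries and 125, 183 and 202 CPM in the ko libraries. The groups did not overlap. Its log2 fold change was 0.83 (SE 0.20, 95% interval 0.36 to 1.30), with an adjusted p of 0.148 by edgeR, 0.031 with the title covariate and 0.0189 by DESeq2. The adjusted p of Hif1a was 0.116 among the dated libraries (edgeR) and 0.166 by limma-voom. Without any 1 library it ran from 0.0909 to 0.501 (edgeR). Egln1, encoding PHD2, the main HIF prolyl hydroxylase, was the tightest of the 3, at 64.0, 69.0 and 67.9 CPM in the wt libraries and 88.6, 87.0 and 91.4 CPM in the ko libraries. For Egln1 the log2 fold change was 0.41 (SE 0.10, adjusted p = 0.146 by edgeR and 0.0473 by DESeq2). Egln3, encoding PHD3, a hydroxylase that is itself a HIF target, was abundant at 252, 268 and 179 CPM in the wt libraries and 342, 434 and 324 CPM in the ko libraries (0.65, adjusted p = 0.239). In wt it reached 87.6 RPKM. The fibroblast and endothelial marker sums were also higher in every ko library, and their part in the values of these 3 genes was not tested.

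The rest of the HIF system, a list of 10 genes, gave a median log2 fold change of -0.05 over the 9 tested, with 2 above 0, 7 below and 0 called by edgeR or DESeq2. At an unadjusted p under 0.05 there were also 0. Epas1, encoding HIF-2 alpha, stood at 318, 374 and 191 CPM in the wt libraries and 315, 319 and 137 CPM in the ko libraries (-0.20). The dimer partner Arnt was nearly constant, at 48.4 ± 1.01 and 48.0 ± 1.92 CPM (SD, n = 3; -0.01), with Arnt2 at -0.21 and Arntl, a clock factor of the same family, at -0.02. Vhl, the ligase subunit that marks hydroxylated HIF for destruction, stood at 8.94 ± 2.01 and 11.8 ± 0.570 CPM, without overlap (0.40, adjusted p = 0.478). Siah2, a ligase that acts on EGLN enzymes, had a value of 0.40. The HIF asparagine hydroxylase Hif1an (-0.17), Egln2 (-0.05) and the inhibitor Cited2 (-0.05) all had overlapping groups. Hif3a was too low to test, at 0.0532 to 0.650 CPM.

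The 7 other hypoxia-linked genes had 4 log2 fold changes above 0 and 3 below. Bnip3, a mitochondrial autophagy receptor and a standard HIF target (ENSMUSG00000078566, chromosome 7, 138890836 to 138909519, minus strand), was measured at 100.4, 123 and 76.4 CPM in the wt libraries and 60.9, 62.4 and 39.0 CPM in the ko libraries. The groups did not overlap, with ko below. For Bnip3 the log2 fold change was -0.89 (SE 0.24, 95% interval -1.47 to -0.31), with an adjusted p of 0.185 by edgeR, 0.0346 by DESeq2, 0.0105 with the title covariate and 0.0471 among the dated libraries. The adjusted p of Bnip3 was 0.212 by limma-voom. Without any 1 library it ran from 0.133 to 0.48 (edgeR). Of its windows, 58.4% also occur in transcripts of 6 other genes, and how many Bnip3 reads were set aside was not tested. Bnip3l, its close relative, named after its values were seen, stood at 190.4 ± 27.0 and 179 ± 13.8 CPM (SD, n = 3; -0.09). Ankrd37, a small ankyrin protein used as a hypoxia marker, stood at 9.24, 9.41 and 6.17 CPM in the wt libraries and 6.76, 9.70 and 3.72 CPM in the ko libraries (-0.30, adjusted p = 0.815). P4ha1, a collagen prolyl hydroxylase subunit, had values of 12.8 ± 4.20 and 12.6 ± 4.65 CPM (-0.02). Adm, the vasodilator peptide adrenomedullin, stood at 54.4, 44.4 and 32.1 CPM in the wt libraries and 33.7, 44.8 and 58.3 CPM in the ko libraries, with overlapping groups (0.06).

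Ndrg1, a stress-induced gene of differentiating epithelia, was measured at 131, 128 and 114 CPM in the wt libraries and 146, 156 and 243 CPM in the ko libraries. The groups did not overlap, with ko replicate 3 far above the others. The log2 fold change of 0.54 (SE 0.21, adjusted p = 0.338) was 0.24 without ko replicate 3. Carbonic anhydrases on the cell surface help to control pH. Car12 stood at 84.1, 28.3 and 93.1 CPM in the wt libraries and 92.7, 110.1 and 181 CPM in the ko libraries (0.90, adjusted p = 0.481), and wt replicate 2 and ko replicate 3 were its extremes, as for Slc2a1. Its value was 0.53 without wt replicate 2 or without ko replicate 3. Car9, the textbook hypoxia marker, rested on 1, 2 and 12 reads in wt and 13, 10 and 17 in ko, so its log2 fold change of 1.57 (95% interval -0.06 to 3.20) is poorly determined, and it ran from 1.02 to 3.18 when 1 library was left out.

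Genes of the neighbouring pathways were described from lists. These overlap, since Pfkfb4 is also on the list of other glycolytic isozymes, and Gys1 and Gbe1 are also on the glycogen list. Among 38 tested hypoxia targets outside the 34, 19 were above 0 and 19 below, with a median of 0.04. Of these 38, 1 was called higher by edgeR, where 0.219% of all genes were, and 0 lower, and before adjustment 5 had a p under 0.05 with ko higher (7.98% of all genes) and 4 with ko lower (5.25%). The 1 was Stc2, a secreted glycoprotein of calcium and stress control, which rose from 2.11, 2.07 and 1.72 CPM in wt to 6.46, 9.17 and 11.0 CPM in ko (2.17 on the log2 scale, SE 0.27, edgeR adjusted p = 0.0459). That call was lost with limma-voom and without wt replicate 1, 2 or 3 or ko replicate 2, where 0 genes in all were called higher. Of the 38, DESeq2 called 3 higher and 1 lower (2.79% and 1.42% of all genes), and the title covariate gave 3 and 0 (3.2% and 1.98%). Lox, a collagen cross-linking enzyme made by fibroblasts, stood at 0.752 ± 0.589 and 6.12 ± 5.10 CPM (SD, n = 3), and ko replicate 3 lay within the wt range (3.00, adjusted p = 0.212). Selenbp1, a selenium-binding protein, stood at 13.8 ± 3.73 and 7.09 ± 2.01 CPM (SD, n = 3; -0.96, adjusted p = 0.208). Vegfa, named after its values were seen because it is the HIF target best known for vessel growth, stood at 63.5, 53.0 and 37.3 CPM in the wt libraries and 70.5, 79.4 and 70.3 CPM in the ko libraries, without overlap (0.52, adjusted p = 0.33).

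The other glycolytic isozymes and transporters, with 19 of 31 tested, had 10 genes above 0 and 9 below and a median of 0.09, and 0 were called by edgeR (before adjustment, p under 0.05 in 4 with ko higher and 2 with ko lower, where 7.98% and 5.25% of all genes were, and DESeq2 called 1 and 1, where it called 2.79% and 1.42% of all genes). Slc2a12, the transporter GLUT12, stood at 8.19, 7.45 and 7.07 CPM in the wt libraries and 4.22, 3.78 and 3.88 CPM in the ko libraries, all below the wt libraries. The Slc2a12 log2 fold change was -0.93 (SE 0.18, adjusted p = 0.0946 by edgeR and 0.000812 by DESeq2). Adpgk, an ADP-dependent glucokinase (0.54), and Pgam5, a mitochondrial phosphatase named for its relation to the mutase (0.46), lay on the other side, both without overlap. Pgam2, Pklr and Eno1b were too low to test.

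The mitochondrial and branching pathways had median log2 fold changes between -0.16 and 0.06. Single genes ranged from -1.14 to 0.58 in pyruvate entry and from -0.41 to 0.04 in the pentose phosphate pathway. In glycogen and gluconeogenesis they ranged from -0.78 to 0.56. The 17 genes of the citric acid cycle had a median of 0.04 and a range of -0.15 to 0.41. Of them 0 were called by edgeR or DESeq2, and 0 had an unadjusted p under 0.05. Sdha stood at 114 ± 6.29 and 129 ± 11.0 CPM (SD, n = 3; 0.18) and Dlst at 83.1 ± 1.76 and 90.3 ± 0.952 CPM (0.12). The 13 genes of pyruvate entry had a median of 0.06, with 0 called by edgeR. Pdk2 was the 1 gene at an unadjusted p under 0.05, with ko lower, where 5.25% of all genes were. DESeq2 called 0 higher and 1 lower (2.79% and 1.42% of all genes), and the title covariate also gave 0 and 1 (3.2% and 1.98%). The carrier subunit Mpc2 (-0.40), the kinase Pdk3 (-0.38) and the phosphatase Pdp1 (0.58) had overlapping groups. Of the 8 genes of the pentose phosphate pathway, which makes NADPH and ribose, 6 were below 0 (median -0.16) and 0 were called by edgeR or DESeq2. Rpia, the ribose phosphate isomerase, stood at 14.2 ± 0.738 and 10.7 ± 0.103 CPM without overlap (-0.41, adjusted p = 0.251). It was the 1 gene of the 8 at an unadjusted p under 0.05, with ko lower, where 5.25% of all genes were. Taldo1 stood at 112 ± 13.0 and 92.4 ± 4.60 CPM (-0.28). Among 13 tested genes of glycogen and gluconeogenesis the median was -0.14 and 0 were called by edgeR, with p under 0.05 before adjustment in 1 gene on each side (7.98% and 5.25% of all genes), and 0 higher and 1 lower by DESeq2 (2.79% and 1.42% of all genes). The glycogen primer Gyg stood at 4.83 ± 0.351 and 2.80 ± 0.332 CPM (-0.78, adjusted p = 0.179), and Pgm1, as named in the reference table, a phosphoglucomutase between glycogen and glycolysis, at 11.2 ± 1.52 and 16.5 ± 2.29 CPM (0.56, adjusted p = 0.247).

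**Figure D5:**
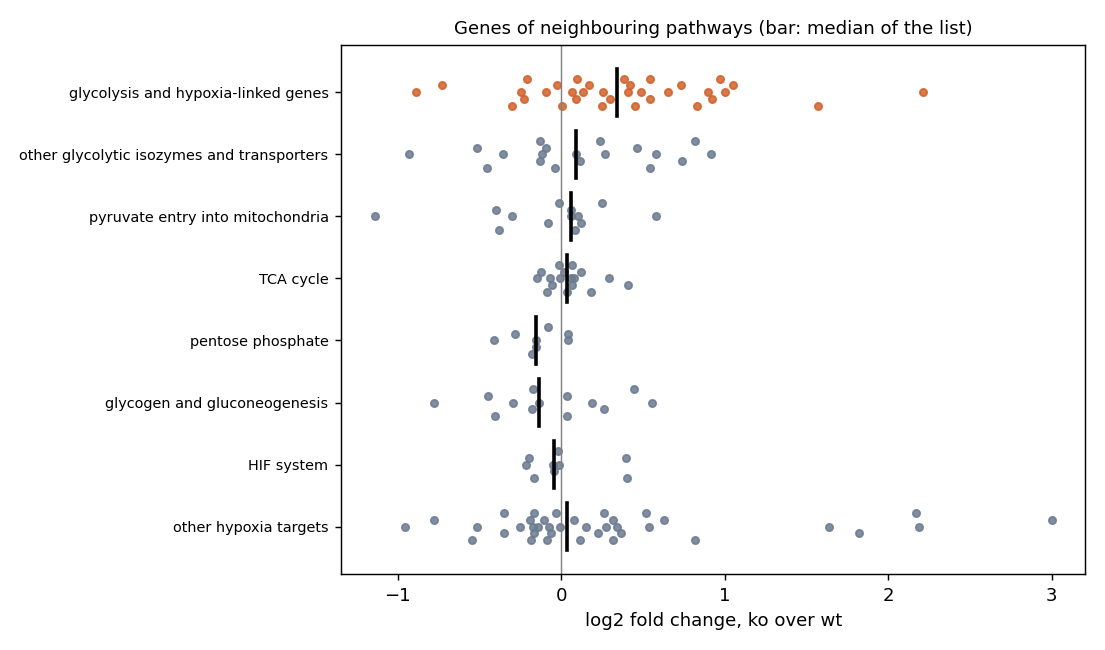
Log2 fold change of ko over wt for each gene tested, by list, with the list's median as a bar. A gene shared between lists is drawn in each. The glycolysis and hypoxia-linked genes have a median of 0.34, and the other 7 lists have medians between -0.16 and 0.09.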

How the data were processed

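The files hold counts of reads per Ensembl gene, which the authors deposited 1 per library and not normalized. Per the submitters' processing notes they were made with TopHat2 2.0.12, Bowtie 1.1 and HTSeq on mm10; the sources used here do not give tool settings, strand option or annotation, so overlapping or antisense genes may share reads. Per the labels' protocols, libraries were strand-specific (TruSeq Stranded mRNA) and single-end, 51 bases. Depth was 17561294 to 22659511 counts in genes per library. Reads that aligned to several places, overlapped several genes (0.38 to 0.499%) or none (0.341 to 0.377%) stayed out of library sizes and tests. Symbols matched 40254 identifiers, and coordinates, 1-based, are from GENCODE M21 (GRCm38, as mm10).

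Genotype labels gave the groups, and the titles the replicates (I, II and Tryp as 1, 2 and 3). No label says that these are separate animals, and p-values then reflect only how these 6 samples vary, which may be technical. Groups were compared in R 4.3.3 with edgeR 4.0.16 (filterByExpr, TMM, robust quasi-likelihood fit, group as the only factor, threshold 0.05), with DESeq2 1.42.0 and limma-voom (limma 3.58.1) as alternatives. Each SE was derived from the fold change and its F statistic. RPKM were computed from CPM and the union of annotated exons. Shares used an exact two-sided permutation test (scipy 1.17.1). The tests were also run on simulated counts, and the outcome of that check is not given here.

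The 34 genes, the lists and the tests were chosen with earlier results of these data known, and give no independent support. All 34 genes were named, with up to 4 genes of smallest p from each further list and all of the HIF list. Of the genes listed, 1 hypoxia target and 3 markers had no matching symbol.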

Additional observations from a re-analysis of the deposited data

How the results depend on the processing

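Counts of calls over all genes depended on the method. The 30 higher and 0 lower genes became 55 and 2 without a filter on low counts, 18 higher with a filter of 1 CPM in 3 libraries, 430 and 218 with DESeq2, 254 and 100 with the replicate block, 438 and 271 with the title covariate and 160 and 67 among the dated libraries, with 0 by limma-voom. Without 1 library they ran from 0 to 64 higher and from 0 to 2 lower, with 64 higher without ko replicate 3, 27 without ko replicate 1 and 0 without each of the other 4. Of the 34 members, 0 were called higher and 0 lower in the main test. The counts were also 0 and 0 by limma-voom and without any 1 library. There was 1 higher, Hk2, with total counts and without a filter. DESeq2 gave 5 higher and 2 lower, the replicate block 3 and 1, the title covariate 6 and 2, the dated libraries 1 and 1, and an adjusted p under 0.1 gave 1 and 1. An unadjusted p under 0.05 gave 10 and 2. That count, as an alternative added after seeing the data, was 17 and 2 with the title covariate, 9 and 2 among the dated libraries, 7 to 13 higher without 1 library, and 2 lower each time. Replicate numbers are not shown to pair the libraries: same-numbered deviations correlated at -0.18, 0.47 and 0.67 and wt replicate 2 correlated best with ko replicate 1 (0.51), so the replicate block is given only here.

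Of 542 values of single members under the alternatives, 497 kept direction and side of the threshold, 23 passed it and 22 changed sign. The sign changes were in genes near 0. Without 1 library each, Hk1 ran from -0.25 to 0.042, Pfkl from -0.10 to 0.22, Aldoa from -0.10 to 0.29, Slc16a1 from -0.064 to 0.29, Pdk4 from -0.32 to 0.33, P4ha1 from -0.40 to 0.16 and Adm from -0.18 to 0.24. Among the dated libraries Aldoa was at -0.050, Slc16a1 at -0.045 and Adm at -0.36. Pdk4 was at -0.0063 with DESeq2 size factors, -0.017 with upper quartiles, -0.049 with total counts, -0.0022 without a filter and -0.0080 with DESeq2. For shares, the Slc2a3 difference was 0.0069 percentage points among the dated libraries and ran from -0.066 to 0.0972 without 1 library, and the Pfkl difference from -3.91 to 0.599. The cause of these changes was not tested. Depth limits Car9, with 1 to 17 reads, and Slc2a3, with 7 to 20.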
